A study of Homo sapiens with 80 samples.

Results

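A set of 6 libraries of 3′ digital gene expression (DGE, which counts reads from the ends of messenger RNAs) compared lenalidomide-regrown with parental SU-DHL-1 cells after both had been kept for 18 h in the solvent DMSO. These 6 libraries, out of 80 samples in the series, were chosen by their labels and not by any measured value. SU-DHL-1 is an established line of ALK-positive anaplastic large cell lymphoma (ALCL), a T-cell lymphoma driven by a fusion of the ALK kinase. The parental group was the line as it stood, with 3 libraries that the labels number 1 to 3 without saying whether they were separate cultures, so that p-values may measure technical spread on that side. The regrown group was 3 pools that had become resistant during long culture in rising lenalidomide and had then been grown without the drug for at least 2 months, with 1 library from each pool. Neither group received lenalidomide during the 18 h, both were grown in RPMI 1640 with 10% serum, and the comparison therefore asks which transcripts differed in the resistant cells at rest. A further 3 sets of libraries from the same line are used beside it: DGE after 18 h of 2.5 µM lenalidomide, RNA-seq of cells made for inducible ZFP91 knockout but given no doxycycline, and PRO-seq, a run-on assay of nascent transcripts. Each of these sets holds 3 parental and 3 regrown libraries.

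Lenalidomide binds cereblon, the substrate receptor of a ubiquitin ligase, and makes it take up zinc finger proteins such as IKZF1 and ZFP91, which are then degraded. T-cell lymphomas respond less than myeloma does, and a cell can become resistant by losing parts of the ligase, by holding its target proteins at other levels, or by changing the programs that those proteins support. In ALCL the ALK fusion drives STAT3, and AP-1 factors such as BATF3 together with IRF4 and MYC maintain growth. The T-cell receptor pathway is largely silent in this lymphoma.

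The 6 libraries held 279197 to 370447 counts, so that 1 count was worth 2.70 to 3.58 CPM (a library's counts scaled to a total of 1000000), and 11650 to 12530 genes had a count in each. A low gene is therefore measured with few reads. Parental libraries lay closer together (chi-square per degree of freedom 1.34 to 1.61 between pairs) than regrown libraries (2.16 to 3.18), and no pair was a duplicate. Regrown replicate 3, with the smallest total, stood apart on the second principal component (23.4% of the variance), while the first (40.5%) separated regrown from parental cells. Markers of ALCL were present in both groups, which does not by itself identify the line: of 12 such markers 9 were tested and 0 called by edgeR or DESeq2 (2 at an unadjusted p under 0.05), and their summed level ran from 9390 to 9730 CPM in parental and from 7640 to 10600 CPM in regrown libraries. None of the 10 B-cell markers had a row, and 3 of the 13 epithelial and stromal markers had one, with a summed level of at most 5.4 CPM. Of 18 myeloid markers 8 had a row and 2 were tested (CD163 and FCER1G), and their summed level was 859 to 1010 CPM in parental and 566 to 827 CPM in regrown libraries.

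Of 5941 genes with enough counts for a test, 173 were higher and 196 lower in regrown cells at an adjusted p under 0.05 (edgeR's quasi-likelihood test with Benjamini-Hochberg adjustment). These are 2.91% and 3.3% of the genes tested, and the median log2 fold change of all genes was 0.01. The change was at least 2-fold for 124 of the rises and 121 of the falls, and at least 4-fold for 15 and 24. CPM values of the 3 regrown and 3 parental libraries did not overlap for 169 of the rises and all 196 falls, against 23.0% of all tested genes. DESeq2 called 123 rises and 117 falls, and without regrown replicate 3 edgeR called 243 and 269. Without parental replicate 1, 2 or 3 it called 111, 104 and 120 falls, without regrown replicate 2 it called 122, and without parental replicate 1 it called 115 rises. Between 2 populations of cells in bulk, fewer cells carrying a transcript and less transcript in each cell cannot be told apart.

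**Figure D1:**
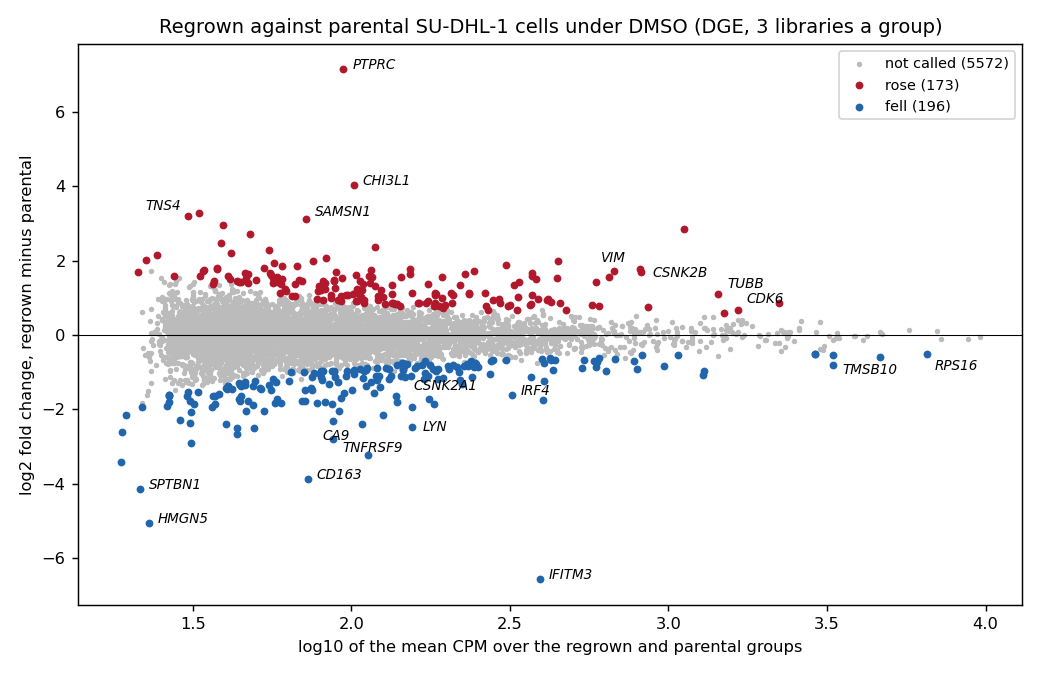
Log2 fold change of regrown over parental cells (vertical axis) against the log10 of the mean CPM of both groups (horizontal axis) for the 5941 tested genes, 1 point each, with 173 rises in red and 196 falls in blue. PTPRC at the top and IFITM3 at the bottom stand farthest from 0, and the called genes of highest level, such as RPS16 and GNB2L1, changed by under 2-fold.

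The 2 genes that changed most were a receptor phosphatase that appeared and an antiviral membrane protein that almost vanished. PTPRC encodes CD45, the phosphatase that activates Src-family kinases in lymphocytes. It had 0, 0 and 1 counts in parental replicates 1 to 3 and 59, 79 and 52 in the regrown pools, which is 164, 213 and 186 CPM. Every regrown pool carried it, and in parental cells it stood at the level of a single read. The ratio of counts, scaled to the total counts of each group, was 194, with a 95% exact interval of 34.4 to 7700 that covers counting error only. The fitted change was 7.13 ± 0.53 on the log2 scale (± SE, n = 3 a group, edgeR adjusted p = 2.4e-10), a value that depends on the prior count of the fit. RNA-seq gave 4.26, 4.29 and 5.49 CPM in parental and 535, 442 and 525 CPM in regrown cells, and PRO-seq gave 1.35 to 2.4 CPM against 70.5 to 161 CPM. The order of the groups was thus the same in steady RNA and in RNA being made. The 24 tested genes nearest to PTPRC on chromosome 1 had a median log2 change of 0.05.

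IFITM3, an interferon-induced protein that blocks entry of viruses, went the other way. It stood at 790, 764 and 776 CPM in the parental libraries and at 8.36, 5.4 and 10.7 CPM in the regrown pools. Both groups were tight, and the lowest parental value was far above the highest regrown one. The change was -6.56 ± 0.30 (edgeR adjusted p = 1.94e-15), and the nearest 24 tested genes on chromosome 11 had a median of 0.18. RNA-seq gave 124, 151 and 189 CPM against 1.83, 1.13 and 0.987 CPM. In PRO-seq the gap was smaller, 30.0, 28.2 and 30.0 CPM against 7.8, 11.6 and 13.6 CPM. IFITM genes are near copies of one another, so that reads can be shared among them. The neighbouring copy IFITM2 changed by -0.21 ± 0.16 (adjusted p = 0.532) and IFITM1 had at most 2 counts in any library.

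No other interferon-stimulated gene that was tested was called. Of 54 interferon-stimulated genes listed, 51 had a row and 24 were tested. Of these 1 fell (IFITM3), 0 rose and 23 were not called, with a median of 0.14. That is 4.17% called, near the 6.21% of all tested genes. ISG15, a ubiquitin-like modifier, changed by -0.17 and IFI6, a mitochondrial survival protein, by 0.69, neither of them called. Most classical members (IFIT1, IFIT2, IFIT3, OAS1, RSAD2) had too few counts to test.

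CD163, the haemoglobin scavenger receptor and best known as a macrophage marker, stood at 126, 158 and 122 CPM in parental libraries and at 2.79, 8.1 and 17.9 CPM in the regrown pools (-3.88 ± 0.41, edgeR adjusted p = 2.64e-07). RNA-seq gave 305, 322 and 312 CPM against 4.69, 4.79 and 7.49 CPM. Of the other myeloid markers, FCER1G, a signalling chain of Fc receptors, had the highest level, with 767, 683 and 866 CPM in parental and 763, 470 and 516 CPM in regrown libraries (-0.41, adjusted p = 0.223). CSF1R, the receptor of macrophage growth factor, had 10, 5 and 6 counts in parental and 4, 2 and 2 in regrown libraries. S100A9, a member of the same list that was not tested, went the other way. It had 2, 1 and 0 counts in parental and 17, 33 and 7 in regrown libraries. CD33, AIF1 and S100A8 had no count in parental libraries. The part of other cells in the fall of CD163 was not tested. CA9, a carbonic anhydrase induced by low oxygen, was at 192, 173 and 182 CPM in parental and 36.2, 32.4 and 35.8 CPM in regrown cells (-2.39 ± 0.27, adjusted p = 7.55e-07), with no overlap and little spread.

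The 250 bases before the start sites of these 3 strongly lowered genes are printed and searched for 3 known promoter elements. IFITM3 is listed here with the interferon-stimulated genes and CA9 with the hypoxia genes, while CD163 is in neither list. Capitals mark matches to the interferon-stimulated response element (ISRE, searched as GAAA, any 2 bases and GAAA again), the AP-1 site (TGANTCA) and the core of the hypoxia response element (ACGTG), on either strand. The sequences are from RefSeq, build GRCh38.p14, each on the gene's own strand: IFITM3 at chr11:320861-321110 (minus), CD163 at chr12:7503778-7504027 (minus) and CA9 at chr9:35673678-35673927 (plus).
IFITM3: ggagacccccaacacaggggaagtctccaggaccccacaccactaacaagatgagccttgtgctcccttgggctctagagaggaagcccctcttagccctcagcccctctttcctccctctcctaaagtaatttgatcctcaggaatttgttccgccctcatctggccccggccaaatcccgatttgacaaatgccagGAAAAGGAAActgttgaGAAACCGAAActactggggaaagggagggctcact
CD163: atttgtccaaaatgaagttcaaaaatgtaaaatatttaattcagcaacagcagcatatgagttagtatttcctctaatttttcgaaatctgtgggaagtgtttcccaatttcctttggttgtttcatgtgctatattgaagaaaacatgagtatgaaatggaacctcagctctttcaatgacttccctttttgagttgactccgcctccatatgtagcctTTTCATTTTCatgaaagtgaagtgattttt
CA9: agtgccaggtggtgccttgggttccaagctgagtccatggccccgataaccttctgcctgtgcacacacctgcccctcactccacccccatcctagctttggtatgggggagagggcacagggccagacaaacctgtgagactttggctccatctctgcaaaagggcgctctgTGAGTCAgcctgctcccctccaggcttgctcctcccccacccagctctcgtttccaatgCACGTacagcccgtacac

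IFITM3 holds 2 ISRE matches, CD163 holds 1, and CA9 holds 1 AP-1 match and 1 hypoxia core. Among genes that fell the ISRE was found in 3.09% of 162 promoters, against 2.17% of the 138 promoters of genes that rose, 2.55% of 4783 promoters of tested genes and 3.07% of all 27305 promoters of this length. AP-1 matches stood in 4.32% of falls and 2.9% of rises, against 3.62% of tested and 6.6% of all promoters. The hypoxia core stood in 22.8% of falls and 24.6% of rises, against 25.4% of tested and 18.7% of all promoters. The shares in changed genes lay near those of all tested genes for each of the 3 motifs. A match is a description of the letters and not of a bound factor.

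**Figure D2:**
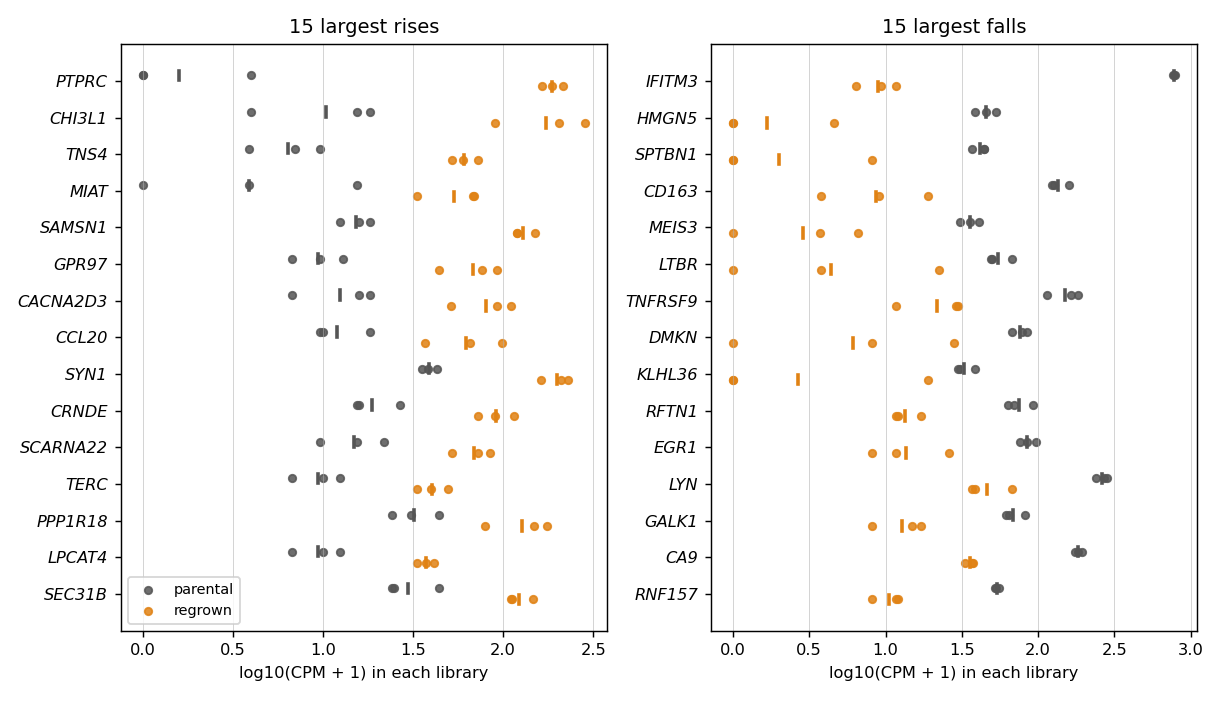
Log10(CPM + 1) in each library (horizontal axis) for the 15 largest rises and 15 largest falls, with parental libraries in grey, regrown pools in orange and short bars at the mean of each group. Only called genes whose parental and regrown values do not overlap could be shown. Regrown libraries of HMGN5, SPTBN1, KLHL36, MEIS3, LTBR and DMKN include values of 0.

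Among the other large rises were genes of secreted factors, adapters and noncoding RNAs. CHI3L1, a secreted chitinase-like protein, rose from 14.4, 17.3 and 2.99 CPM to 203, 283 and 89.5 CPM (4.02 ± 0.44, edgeR adjusted p = 4.14e-07). SAMSN1, an adapter that dampens lymphocyte receptor signalling, rose from 11.5 to 17.2 CPM in parental to 118 to 150 CPM in regrown libraries (3.11 ± 0.35, adjusted p = 6.8e-07). Both were called in the same direction in RNA-seq and PRO-seq. TNS4, which links integrins to the cytoskeleton (3.27 ± 0.51), SYN1, a synaptic vesicle protein (2.37 ± 0.27), and CACNA2D3, a calcium channel subunit (2.70 ± 0.44), rose as well, and so did the long noncoding RNAs MIAT (3.19 ± 0.59) and CRNDE (2.29 ± 0.37). The chemokine CCL20 rose from 8.64 to 17.2 CPM to 35.8 to 97.5 CPM (2.48 ± 0.47, adjusted p = 0.000846) and was called in PRO-seq at 1.92, but not in RNA-seq, where its change was -0.21 (adjusted p = 0.611). TERC, the RNA template of telomerase, rose from 5.76 to 11.5 CPM to 32.2 to 48.6 CPM (2.15 ± 0.51, adjusted p = 0.00808). Its call ended without parental or regrown replicate 2 (adjusted p up to 0.104). VIM, the intermediate filament vimentin and chosen here after its values were seen, rose from 396, 346 and 364 CPM to 1570, 1330 and 863 CPM (1.76 ± 0.19, adjusted p = 4.14e-07).

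The large falls included receptors and kinases of immune signalling. TNFRSF9, the costimulatory receptor 4-1BB, fell from 113 to 182 CPM in parental to 10.8 to 28.7 CPM in regrown libraries (-2.79 ± 0.34, edgeR adjusted p = 2.18e-06). LTBR, the lymphotoxin beta receptor, fell from 47.8 to 66.1 CPM to 0 to 21.5 CPM (-2.90 ± 0.59, adjusted p = 0.0019), and its RNA-seq change was -7.50. LYN, a Src-family kinase, fell from 281, 268 and 239 CPM to 66.9, 37.8 and 35.8 CPM (-2.47 ± 0.26, adjusted p = 2.47e-07). These 3 falls were also called in RNA-seq and PRO-seq. IL1R1, the signalling receptor of interleukin-1, fell from 119 to 158 CPM to 8.36, 29.7 and 53.7 CPM (-2.32 ± 0.36, edgeR adjusted p = 7.9e-05). The 7 other tested genes of the interleukin-1 and inflammasome list were not called. That is 12.5% called, beside 6.21% of all tested genes. RFTN1, a lipid raft protein, fell by 2.51 and TMSB10, an actin-binding thymosin, by 0.81 on the log2 scale.

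A chromatin, a cytoskeletal and a homeobox gene came close to 0. HMGN5, a nucleosome-binding protein, had 46 counts over the parental and 1 over the regrown libraries. Scaled to the total counts of each group, this is a ratio of 45.0 (95% exact interval 7.69 to 1820). SPTBN1, the beta spectrin of non-erythroid cells, had 42 counts against 2, a scaled ratio of 20.6 (5.35 to 175). MEIS3, a homeobox factor, had 36 against 3, a scaled ratio of 11.7 (3.71 to 59.6). RNA-seq changes of the same genes were -7.36, -6.94 and -1.57. For HMGN5 the PRO-seq change was -1.41, for SPTBN1 -3.99 and for MEIS3 -2.12. Their groups did not overlap, which was a condition for naming them here.

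Transcripts of lenalidomide's own targets and of the cereblon ligase gave 1 call, GLUL. CRBN itself had 31.6, 37.5 and 50.8 CPM in parental and 64.1, 43.2 and 35.8 CPM in regrown libraries (0.26 ± 0.37, edgeR adjusted p = 0.78), and the groups overlapped. ZFP91 had 74.7, 107 and 143 CPM against 128, 51.3 and 93.1 CPM (-0.26 ± 0.30, adjusted p = 0.725), again with overlap. IKZF1 had 393, 328 and 340 CPM against 479, 448 and 555 CPM (0.46 ± 0.18, adjusted p = 0.136). Its groups did not overlap, the test did not call it, and RNA-seq called it at 0.80. Of 23 cereblon neosubstrates listed, 8 were tested, with 0 rises, 0 falls and a median of 0.067 (2 at an unadjusted p under 0.05, 0 called by DESeq2). Of 26 genes of the ligase machinery, 23 were tested. Of these 1 rose (GLUL, glutamine synthetase, which cereblon also recruits, 0.85 ± 0.25, edgeR adjusted p = 0.034) and 22 were not called. The share called was 4.35%, near the 6.21% of all tested genes. GLUL lost its call when any 1 of 5 libraries was left out (adjusted p up to 0.158) and with DESeq2 (0.128). CRBN had 10 to 23 counts a library, and only large changes are detectable at that depth.

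All 3 tested subunits of casein kinase 2 changed, in different directions. Casein kinase 2 is a constitutive kinase built from catalytic subunits (CSNK2A1 and CSNK2A2) and a regulatory one (CSNK2B). CSNK2B rose from 362, 395 and 394 CPM to 1240, 1300 and 1220 CPM (1.70 ± 0.16, edgeR adjusted p = 5.23e-08). CSNK2A2 rose from 83.3, 138 and 128 CPM to 287, 256 and 215 CPM (1.11 ± 0.23, adjusted p = 0.00192). CSNK2A1 fell from 181, 236 and 188 CPM to 83.6, 91.8 and 104 CPM (-1.13 ± 0.23, adjusted p = 0.00182). None of the 3 had overlapping groups, and each was called in the same direction in RNA-seq (0.86, 1.43 and -0.99) and PRO-seq (2.05, 0.61 and -0.98). In DGE under lenalidomide only CSNK2B was called (1.59 ± 0.24, edgeR adjusted p = 0.000138). There CSNK2A2 changed by 1.09 ± 0.32 (adjusted p = 0.0572) and CSNK2A1, with overlapping groups, by -0.37 ± 0.34 (adjusted p = 0.71). Under DMSO each of the 3 subunits also moved with the genes beside it. The 24 nearest tested genes had a median of 1.54 around CSNK2B on chromosome 6, 0.87 around CSNK2A2 on chromosome 16 and -0.91 around CSNK2A1 on chromosome 20.

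Many other called genes also shared their direction with genes beside them. Of the 173 rises, 114 lay on chromosomes 3, 6 and 16, which hold 925 of the tested genes, and they were 13.2%, 13.9% and 9.05% of the tested genes there against 2.91% overall. Falls were most frequent on chromosomes 16 (9.05%), 6 (8.61%) and 20 (7.32%). When the 5747 tested genes with a known position were cut into 393 consecutive blocks of 15 in order along each chromosome, 17 blocks held at least 5 calls in 1 direction, 9 with rises and 8 with falls. These blocks, picked by their calls, held 4.44% of the placed genes, 45.2% of the placed rises and 27.1% of the placed falls.

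The densest blocks formed a run of 30 genes in the major histocompatibility region of chromosome 6, from HLA-E to C6ORF48, of which 29 rose. The exception was PPP1R10, a regulatory subunit of protein phosphatase 1, at 0.29 ± 0.34. The first 15 genes summed to 2560, 2390 and 2500 CPM in parental and 6500, 6560 and 6630 CPM in regrown libraries. The other 15, with CSNK2B among them, summed to 1930, 2080 and 2020 CPM against 7810, 6620 and 6540 CPM. Their median log2 changes were 1.46 and 1.58 in DGE, 1.35 and 1.19 in RNA-seq, 1.72 and 1.77 in PRO-seq and 1.29 and 1.59 under lenalidomide. Genes of unrelated function rose by like amounts: TUBB, a beta tubulin, by 1.11 ± 0.15, VARS, the valyl-tRNA synthetase, by 1.88, DDX39B, an RNA helicase of splicing and export, by 1.58, and BAG6, a protein quality factor, by 1.53. In the next block, 5 genes near its start (NEU1, EHMT2, NELFE, SKIV2L and RNF5) rose, and the median of its 15 genes was -0.27. C6ORF48, a small nucleolar RNA host transcript named here after its values were seen, rose beyond its neighbours, from 258, 303 and 263 CPM to 2590, 1930 and 1400 CPM (2.84 ± 0.20, edgeR adjusted p = 6.27e-11, against a median of 1.45 for the nearest genes).

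Other runs were of like kind with smaller medians. On chromosome 6 the block before the raised run, from HIST1H1E to HCG18, held 5 rises with a median of 0.81. Farther along that chromosome, the blocks from CENPW to CCDC28A and from REPS1 to TAB2 held 6 and 5 falls (-0.65 and -0.66). On chromosome 16, 3 blocks in a row from GPT2 to TRADD held 7, 9 and 5 rises with medians of 0.98, 1.07 and 0.43, and in the last of them the rises, CSNK2A2 among them, ended at GOT2, a mitochondrial aminotransferase. Farther along, 3 blocks from DHX38 to VPS9D1-AS1 held 6, 7 and 6 falls with medians of -0.78, -0.89 and -0.91. On chromosome 20 the first 30 tested genes, from SOX12 to PCNA, held 14 falls, with medians of -0.90 and -0.85. Chromosome 3 held both kinds: the block from MRPS22 to C3ORF58 had 7 falls (median -0.89), while those from DCUN1D1 to VPS8 and from HES1 to NCBP2-AS2 had 9 and 6 rises (1.17 and 0.91). RNA-seq and PRO-seq medians had the sign of the DGE median in each of the 17 blocks. Among these blocks the RNA-seq median lay nearest to 0 in that from USB1 to TRADD (0.0064, with 0.0175 in PRO-seq) and the PRO-seq median in that from NEU1 to WDR46 (-0.0057, with -0.29 in RNA-seq). DNA was not measured in these libraries, and a cause of the shared direction was not tested.

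**Figure D3:**
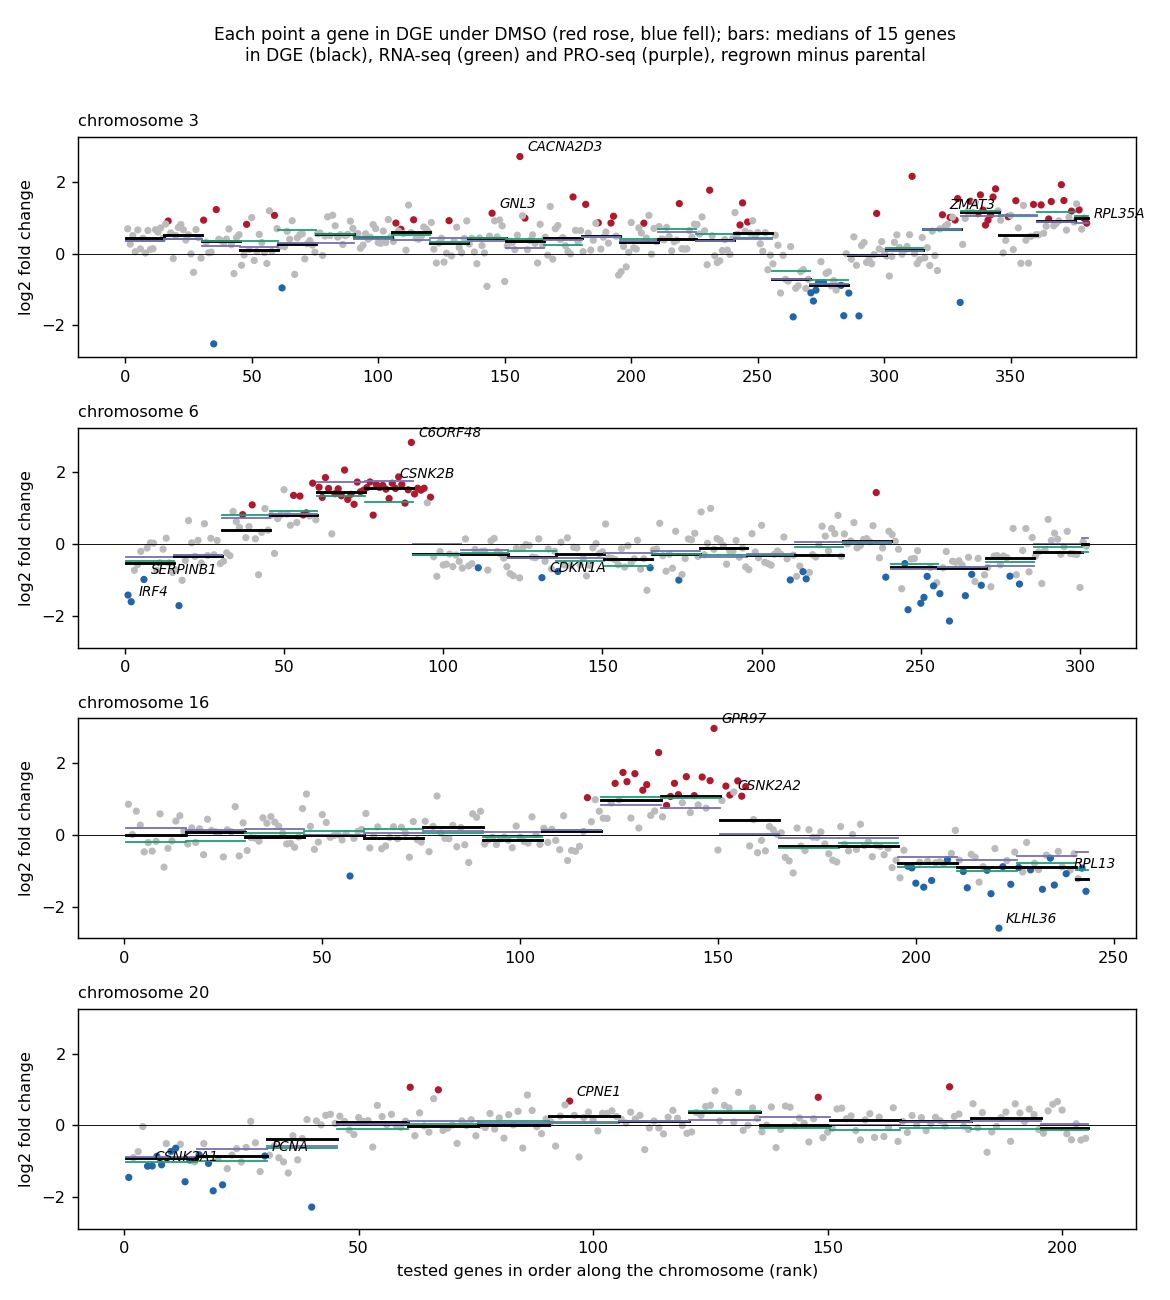
Log2 fold change of each tested gene (vertical axis) in order along chromosomes 3, 6, 16 and 20 (horizontal axis, rank among tested genes), with rises in red, falls in blue and genes not called in grey. Bars give the medians of 15 consecutive genes in DGE (black), RNA-seq (green) and PRO-seq (purple). The raised run that holds CSNK2B on chromosome 6, the raised and lowered runs on chromosome 16 and the lowered start of chromosome 20 that holds CSNK2A1 appear in each of the 3 assays.

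Several gene lists drew their calls from these runs. In MHC class I presentation, which shows peptides to cytotoxic T cells, 16 of 22 genes were tested and 5 rose (31.2%, beside 2.91% of all tested genes), among them HLA-C (1.73 ± 0.21), HLA-E (1.59 ± 0.19), HLA-B (0.81 ± 0.22) and B2M, the light chain (0.74 ± 0.20). These HLA genes lie in the raised blocks of chromosome 6 and are near copies of one another, so that reads may be shared. Peptide transporters TAP1 and TAP2, which lie beyond that run, changed by -0.58 and -0.89 and were not called. B2M lies on chromosome 15 and had 1310 and 1290 CPM in regrown replicates 1 and 2 but 623 CPM in replicate 3, against 622 to 658 CPM in parental cells. Its call ended with DESeq2 (adjusted p = 0.0513) and when any 1 of 5 libraries was left out (up to 0.154), and HLA-B was lost without any 1 of 4 (up to 0.21). Of the heat shock chaperones, 15 of 19 were tested and 20.0% of these were called, beside 6.21% of all tested genes. HSPA1B and HSPA1A are near-identical genes in the same run. HSPA1B rose from 31.6 to 69.2 CPM to 104 to 189 CPM and HSPA1A from 123 to 138 CPM to 150 to 357 CPM. HSPB1, a small chaperone on chromosome 7, fell (-0.79 ± 0.20). HSPB1 lost its call without any 1 of 3 libraries (adjusted p up to 0.0927).

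The transcription factors that sustain ALCL showed 2 falls. IRF4, a factor that activated lymphocytes depend on, fell from 439, 519 and 484 CPM to 170, 121 and 190 CPM (-1.60 ± 0.20, edgeR adjusted p = 3.64e-06), with no overlap. The median of its nearest tested genes was -0.49. JUN, a partner in AP-1, fell from 48.8, 43.2 and 74.6 CPM to 22.3, 16.2 and 14.3 CPM (-1.63 ± 0.42, adjusted p = 0.0144). Its call ended with DESeq2 (0.0703), without parental replicate 3 and without regrown replicate 2 (adjusted p up to 0.149). BATF3 had 1110, 1120 and 1030 CPM against 1380, 1180 and 1210 CPM (0.20 ± 0.15, adjusted p = 0.543), and MYC 164, 121 and 146 CPM against 156, 197 and 115 CPM (0.12 ± 0.24, adjusted p = 0.853). TNFRSF8, the CD30 receptor by which ALCL is recognised, had 376, 424 and 403 CPM against 376, 240 and 480 CPM (-0.16 ± 0.21, edgeR adjusted p = 0.771). RNA-seq called TNFRSF8 lower, at -0.63. Of 9 tested AP-1 and BATF factors JUN alone was called, and of 10 tested IRF factors and MYC, IRF4 alone. The shares called were 11.1% and 10.0%, beside 6.21% of all tested genes. EGR1, an immediate early gene of growth factor signalling, fell from 74.7, 83.6 and 95.5 CPM to 25.1, 10.8 and 7.16 CPM (-2.50 ± 0.41, adjusted p = 0.00015). RNA-seq called EGR1 at -1.15, and in PRO-seq its change was -0.03 (adjusted p = 0.88). The 6 other tested genes of the MAPK feedback list were not called, so that 14.3% of its tested genes were called.

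In the ALK and STAT3 program 27 of 34 genes were tested, and 3 fell (11.1%, beside 3.3% of all tested genes) and 0 rose. The list's median was -0.25, beside 0.01 over all tested genes, and 20 of the 27 had a value below 0. ALK changed by 0.30 and STAT3 by -0.39, neither called. EMP1, a membrane protein, fell from 80.4 to 95.5 CPM to 10.8 to 30.6 CPM (-2.03 ± 0.37, edgeR adjusted p = 0.000671). HIF1A, the oxygen-regulated factor, and PIM1, a STAT3-induced kinase, fell by 0.79 and 0.76 on the log2 scale. Their calls ended with DESeq2 (adjusted p = 0.109 and 0.148) and without any 1 of 5 and 4 libraries (up to 0.16 and 0.239). Without regrown replicate 3 this list held 7 falls and 2 rises. In the hypoxia and glycolysis list, 27 of 39 genes were tested, CA9 and HIF1A fell and 0 rose. That is 7.41% called, near the 6.21% of all tested genes. Of the 27, 19 had a value below 0 (median -0.24).

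T-cell receptor genes had few counts. Of 29 T-cell receptor and identity genes 15 had a row and 6 were tested. Among them LEF1, a Wnt-dependent T-cell factor, rose from 112 to 116 CPM to 189 to 246 CPM (0.86 ± 0.22, edgeR adjusted p = 0.0136). It lost its call without any 1 of 4 libraries (adjusted p up to 0.0987). CD3D, a chain of the receptor complex, changed by 0.33 (adjusted p = 0.485), CD5 by -0.47 (0.447) and GATA3 by 0.45 (0.358). Around CD45, PTPRC rose and LYN fell, while CSK (0.50), PAG1 (-0.47), PTPN22 (0.77) and PTPN11 (0.33) were not called. Of the 6 tested genes of that list 33.3% were called, beside 6.21% of all tested genes. Of 9 tested cytotoxic granule genes 1 was called (11.1%, beside 6.21% of all tested genes). SERPINB1, an inhibitor of granule proteases, fell from 1730, 1790 and 1660 CPM to 1110, 929 and 591 CPM (-0.98 ± 0.18, edgeR adjusted p = 0.000478). Its nearest genes had a median of -0.49.

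Growth genes changed in both directions. Of 42 tested cell cycle and replication genes 1 rose and 4 fell, a share of 11.9% against 6.21% of all genes (median -0.032). CDK6, a kinase that opens the cell cycle, rose from 1180, 1330 and 1290 CPM to 1830, 1800 and 2500 CPM (0.67 ± 0.15, edgeR adjusted p = 0.0053). Without parental replicate 1 its adjusted p was 0.0879. CDKN1A, the p21 inhibitor and a p53 target, fell from 528, 550 and 615 CPM to 390, 240 and 261 CPM (-0.93 ± 0.20, adjusted p = 0.00244). GINS2 (-1.38 ± 0.26) and PCNA (-0.85 ± 0.24), of the replication fork, lie in lowered blocks of chromosomes 16 and 20. PCNA lost its call without any 1 of 4 libraries (up to 0.118), as did AURKB, a mitotic kinase (-0.74 ± 0.20), without any 1 of 3 (up to 0.12). GADD45A, a stress-induced p53 target, fell by 1.34 on the log2 scale, with its call lost without parental or regrown replicate 2 (up to 0.142). ZMAT3, another p53 target, rose by 1.08 ± 0.26 among raised genes of chromosome 3 (nearest median 0.66), and without parental replicate 1 or 2 its adjusted p was up to 0.0505. Of 17 tested BCL2 family and apoptosis genes 0 were called by edgeR or DESeq2, with 1 at an unadjusted p under 0.05. The smallest p were those of CFLAR, an inhibitor of death receptor signalling (0.64, adjusted p = 0.26), and BNIP3L, a mitophagy receptor (-0.45, adjusted p = 0.504).

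The most abundant called genes changed by small amounts. Of 71 tested ribosomal protein genes 1 rose and 4 fell, 7.04% against 6.21% of all genes. RPL35A rose from 1590, 1590 and 1560 CPM to 2730, 3030 and 2850 CPM (0.85 ± 0.14, edgeR adjusted p = 0.000117), at the end of chromosome 3 where the nearest genes had a median of 0.90. RPL13 fell from 1800, 1650 and 1770 CPM to 883, 794 and 806 CPM (-1.08 ± 0.15, adjusted p = 1.31e-05), in a lowered block of chromosome 16 with a nearest median of -0.92. RPS12, RPS16 and RPS20 fell by 0.50 to 0.55 on the log2 scale, and each lost its call without any 1 parental library (adjusted p up to 0.179 over these genes). RPS16 was also not called by DESeq2 (adjusted p = 0.0616), and its changes in RNA-seq (0.09) and PRO-seq (0.18) were above 0 and not called. RPS12 lies in a lowered block of chromosome 6 with a nearest median of -0.40. Ribosomal protein genes have many processed copies, so that reads can be shared. GNB2L1, the ribosomal scaffold RACK1, fell from 5290, 5270 and 6140 CPM to 3890, 3570 and 3780 CPM (-0.58 ± 0.13, adjusted p = 0.00306), and without parental replicate 3 its adjusted p was 0.0572.

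Small nucleolar RNA host genes carry the guide RNAs of ribosome modification in their introns. The list of them used here gave 0 calls of 14 tested by edgeR or DESeq2 (7 at an unadjusted p under 0.05). C6ORF48, the host transcript described above, is not in that list and was called as a rise (2.84 ± 0.20). Within the list, 13 of the 14 values were above 0 (median 0.54, against 0.01 for all genes). The summed level of the list was 3000, 3120 and 2920 CPM in parental and 4320, 4280 and 2920 CPM in regrown libraries, so that regrown replicates 1 and 2 were higher and replicate 3 was not. GAS5 had 253, 369 and 302 CPM against 607, 545 and 326 CPM (0.68 ± 0.21, edgeR adjusted p = 0.0518), and SNHG7 stood at 0.94 ± 0.29 with the same adjusted p. Without regrown replicate 3, 4 members rose. The clustered histones, of which 5 of 31 were tested and 0 called by edgeR or DESeq2 (3 at an unadjusted p under 0.05), showed the same dependence, with 3 rises without that library.

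Metabolic lists held falls in lipid and amino acid genes. Of 17 tested cholesterol and fatty acid genes 3 fell (17.6%, beside 3.3% of all tested genes): HSD17B7, an enzyme of cholesterol synthesis (-0.74 ± 0.19), FADS1, a fatty acid desaturase (-1.86 ± 0.48), and ABCA1, which exports cholesterol from cells (-1.59 ± 0.42). Each lost its call without any 1 of 3 or 4 libraries (adjusted p up to 0.158). Of 27 tested genes of the amino acid response and unfolded protein response 7.41% were called, near the 6.21% of all tested genes. These were MTHFD1L and SLC7A5, which fell by 0.89 and 0.97 on the log2 scale. Neither was called by DESeq2 (adjusted p = 0.0973 and 0.132) or without any 1 of 3 and 4 libraries. SLC7A5 lies in a lowered block of chromosome 16 with a nearest median of -0.90. Among 15 mitochondrially encoded genes 13.3% were called, beside 6.21% of all tested genes. MT-ND2 rose (0.59 ± 0.15) and MT-CO2 fell (-0.52 ± 0.13), and both calls ended without any 1 parental library. Of 9 tested integrin and adhesion genes TNS4 and CD44, the hyaluronan receptor (0.97 ± 0.20), rose (22.2% called, beside 6.21% of all tested genes). Neither edgeR nor DESeq2 made a call among 6 PI3-kinase subunits, 3 drug efflux and vault genes, 2 hexose transporters, 3 S100 proteins or 1 MHC class II gene tested. At an unadjusted p under 0.05 stood 1 PI3-kinase subunit (PIK3CB, -0.72) and 1 S100 protein (S100A10, -0.76). RNA-seq, where 43.7% of all tested genes were called, did call members of these lists. S100A10 (-2.94), HLA-DRA of MHC class II (-2.71) and the hexose transporter SLC2A1 (-0.82) were lower there. The PI3-kinase subunit PIK3R4 was higher (0.43), and SLC2A3 and ABCC1 were not called.

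**Figure D4:**
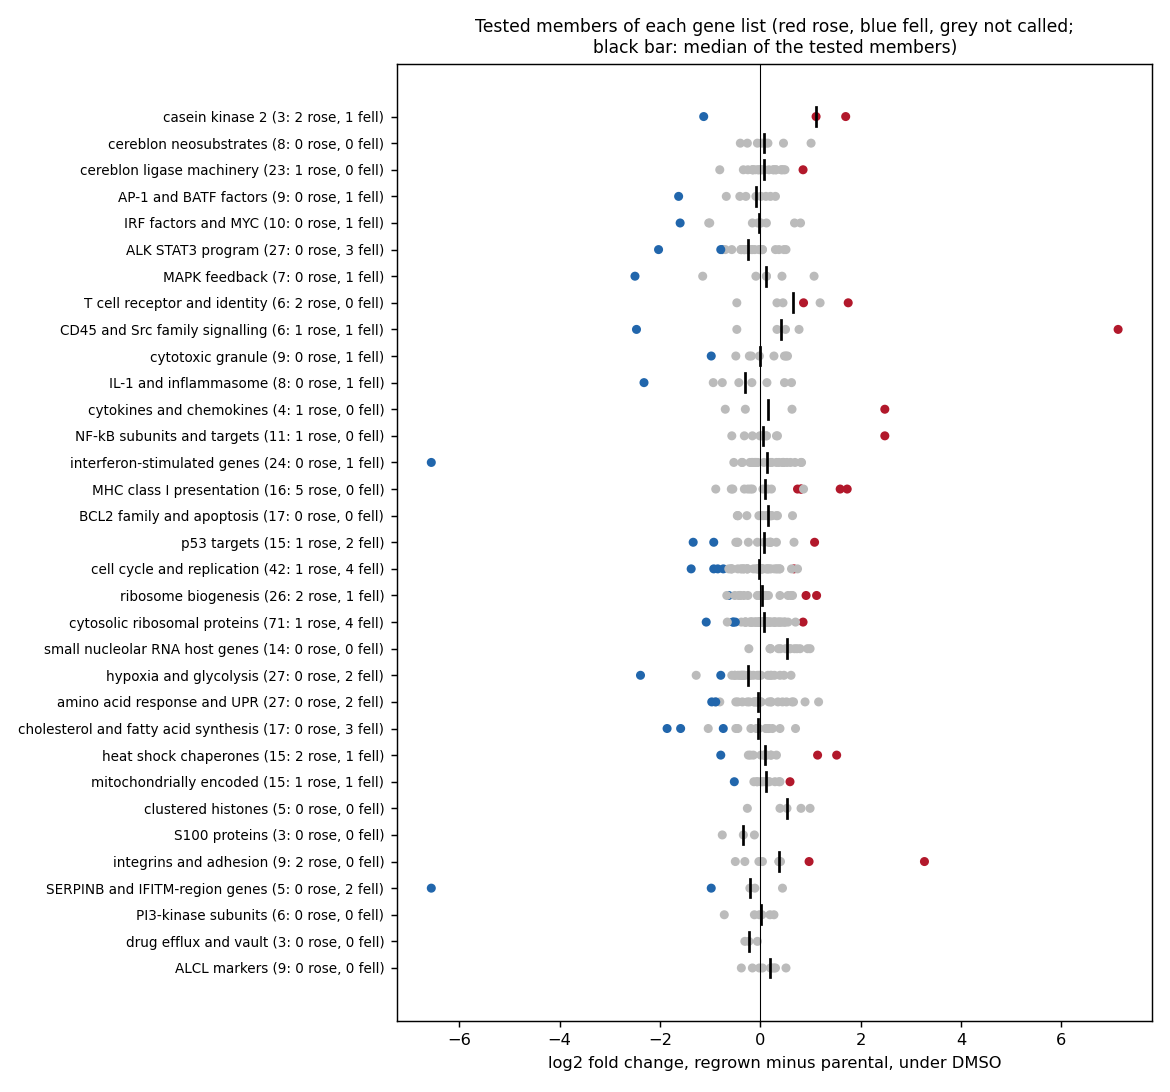
Log2 fold change (horizontal axis) of every tested member of the gene lists with at least 3 tested members (rows), with rises in red, falls in blue, genes not called in grey and the median of the tested members as a black bar. Most members of most lists lie near 0, and single genes such as IFITM3 and PTPRC stand far from the rest of their lists.

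The called genes were then set beside the other libraries of the same cells. In RNA-seq, where 43.7% of all tested genes were called, 22.6% higher and 21.1% lower in regrown cells, 145 of 161 tested rises and 166 of 189 tested falls were called in the same direction. In PRO-seq, with 30.2% of all genes called, 14.0% higher and 16.2% lower, these numbers were 130 of 155 and 145 of 185. Of the 153 rises tested in both, 116 were called the same way in both, 20 in RNA-seq only, 12 in PRO-seq only and 4 in neither, and 1 was called the opposite way. Of the 185 falls tested in both the numbers were 131, 32, 13, 8 and 1. The calls seen in RNA-seq but not in PRO-seq had median PRO-seq changes of 0.15 for rises and -0.19 for falls.

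Few genes went against the DGE. SCAF11, a splicing-associated protein, rose in DGE (0.79 ± 0.24) and RNA-seq (0.54) and was lower in PRO-seq (-0.29, edgeR adjusted p = 0.0355). AKAP13, an anchoring protein, fell in DGE (-1.09 ± 0.28) and PRO-seq (-0.40, adjusted p = 0.0238) and was higher in RNA-seq (0.42, edgeR adjusted p = 0.0328). The mitochondrial tRNA gene MT-TY fell in DGE (-1.47 ± 0.31) and was higher in RNA-seq (1.02). SCAF11 lost its DGE call without any 1 of 5 libraries (adjusted p up to 0.259) and AKAP13 without parental replicate 1 or 3 (up to 0.0901). Called in DGE and in neither other assay were the rises LPCAT4 (2.01 ± 0.52), CPNE1 (0.68 ± 0.19), FAM89B (1.46 ± 0.41) and EPM2AIP1 (1.06 ± 0.31), each of which lost its call without any 1 of 3 to 5 libraries (up to 0.197). Among the 8 falls of that kind were CALM3, a calmodulin gene (804, 795 and 684 CPM against 368, 502 and 387 CPM, -0.87 ± 0.18, adjusted p = 0.00167), DMKN, a secreted epidermal protein (-2.65 ± 0.51, not called by DESeq2 at 0.0984), and the pseudogene RPL13P12 (-0.98 ± 0.17), whose reads can come from RPL13. CALM3 changed by 0.03 in RNA-seq and -0.25 in PRO-seq.

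**Figure D5:**
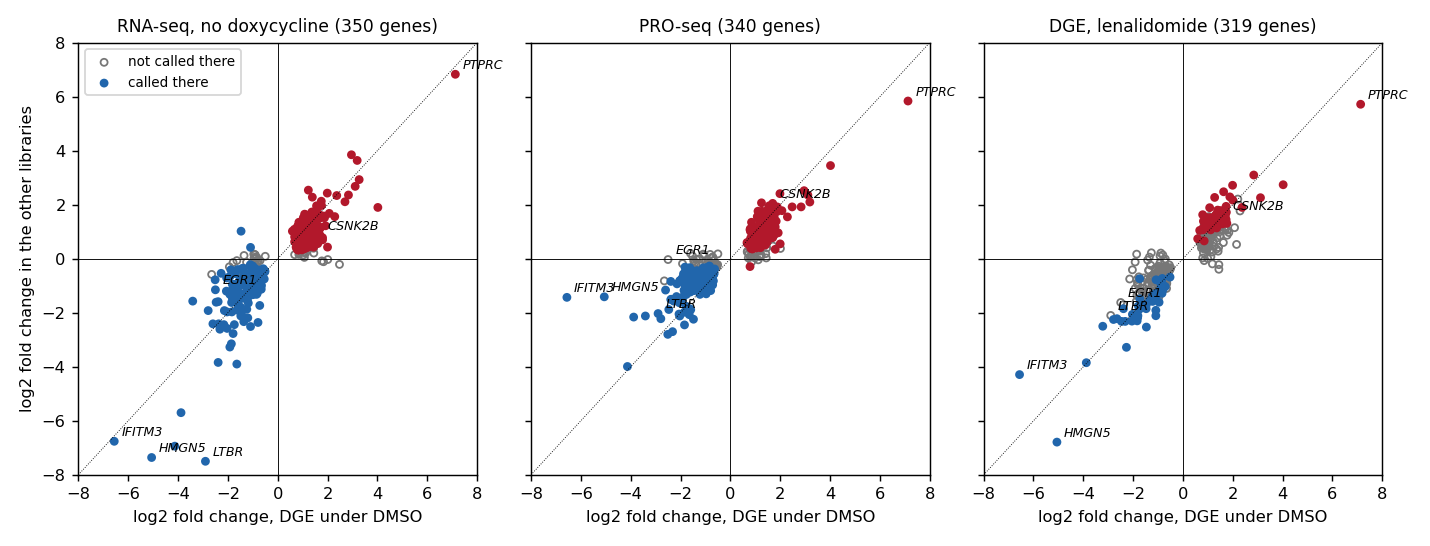
Log2 fold change of regrown over parental cells for the genes called in DGE under DMSO (horizontal axis) against the same change in RNA-seq (350 genes), PRO-seq (340) and DGE under lenalidomide (319), with filled points for genes called there and open points for the rest. Most points lie in the lower left or upper right part, and the change of IFITM3 was smaller in PRO-seq (-1.43) than in DGE (-6.56).

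Under 18 h of lenalidomide the same groups, in other libraries of 41571 to 395827 counts, gave 129 calls of 4648 tested genes (2.78%, with 1.2% higher and 1.57% lower). The calls were 23 without parental replicate 1, 71 without parental replicate 2 and 44 without regrown replicate 3. Of the genes called under DMSO, 151 rises and 168 falls were tested there. The sign was the same for 147 and 162 of them, 50 and 46 were called in the same direction, and 0 in the opposite one. PTPRC stood at 2.98, 0 and 0 CPM in parental and 106, 83.1 and 106 CPM in regrown libraries with the drug, and CD163 at 381, 245 and 577 CPM against 8.19, 7.55 and 40 CPM. IFITM3 was at 2290, 2610 and 1680 CPM in parental cells with lenalidomide and at 213, 113 and 60.1 CPM in regrown cells (-4.29). Each regrown library was again below each parental one. A test of the difference between the contrasts called 0 of 6838 genes by edgeR and 0 by DESeq2, with 285 and 160 at an unadjusted p under 0.05. The smallest adjusted p in edgeR was 0.639. No change under DMSO was therefore shown to differ under the drug.

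The 3 regrown pools were also compared with one another. An F-test among the pools over their 6 DGE libraries, with the treatment as a covariate, was added after seeing the data and called 4 of 6356 genes (0.0629%), against 3 of 6426 (0.0467%) when parental libraries were compared by replicate number. The shares are close, and with 6 libraries such a test does not show that the pools were alike in the other genes. The 4 called genes are described here by their values. GZMB, the granzyme of cytotoxic granules and an ALCL marker, had 4310, 1670 and 3640 CPM in pools 1 to 3 under DMSO, with 2990 to 3340 CPM in parental cells (edgeR F-test, adjusted p = 4.54e-05). Pool 2 was the low one under lenalidomide too (3970, 1310 and 2550 CPM). In RNA-seq every regrown library was below the parental ones for GZMB, with 814, 536 and 751 CPM against 1120 to 1310 CPM, while PRO-seq gave overlapping values of 62.6, 52.9 and 71.2 CPM against 62.3 to 75.4 CPM. IL10, an anti-inflammatory cytokine, had 223, 54.0 and 294 CPM in the pools and 275 to 331 CPM in parental cells, again with pool 2 low (adjusted p = 0.04876). RNA-seq had IL10 lower in all regrown libraries, at 87.2, 77.9 and 66.6 CPM against 192 to 236 CPM, and so had PRO-seq, at 131, 108 and 424 CPM against 453 to 505 CPM. TEX19, a germ cell gene, had 25.1, 178 and 46.6 CPM against 0 to 5.76 CPM in parental cells (adjusted p = 0.003874). TMPRSS15, an intestinal protease, had 0, 70.2 and 107 CPM against 0 to 2.87 CPM (adjusted p = 0.0009237). RNA-seq values in the regrown libraries were 49.0, 82.7 and 48.3 CPM for TEX19, against 3.34 to 4.59 CPM, and 6.37, 3.81 and 9.64 CPM for TMPRSS15, against 1.18 to 2.01 CPM, with none at 0. Whether the RNA-seq and PRO-seq numbers name the same pools is not stated in the labels.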

How the data were processed

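Counts per gene were taken from the tables that the authors deposited, whole numbers with no normalization. Per the submitters' processing notes, DGE reads were handled with FastQC, Bowtie2 2.2.3 and DESeq2 on hg19, RNA-seq with STAR 2.6.1d, DESeq2 1.20.0 and edgeR 3.24.3 on hg38, and PRO-seq with cutadapt 1.14, Bowtie 1.2.2 and featureCounts 1.6.2 on hg38. The DGE counting tool and its use of strand and molecular identifiers are not given in the sources used here. Each comparison was fitted to its own groups with edgeR 4.0.16 in R 4.3.3 (filterByExpr, TMM scaling, glmQLFit and glmQLFTest, two-sided, Benjamini-Hochberg over all genes tested, called at an adjusted p under 0.05). Standard errors were derived from F, as |log2 change| over its square root. The test was run on simulated data first. CPM are counts divided by the library's total in the table. Alternatives were DESeq2 1.42.0, other scalings and filters, left-out libraries, a replicate block, a fit of all 4 DGE groups and thinning to the smallest library.

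DGE names have no identifiers. Of 17463, 13655 were joined to the other assays by name and 600 by an older symbol, and 14110 got a chromosome and an order along it from the PRO-seq table (hg38) or else RefSeq (GRCh38.p14), used for order only. The 17 names that a spreadsheet had turned into dates were left as they were. IKZF3 was not analysed here. Some list members are counted but not reported by name here.

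The comparison, its members, the 38 gene lists and the naming rule were chosen with earlier results of these data known. Named were 13 design genes, the 15 largest called changes per direction without overlap of the groups, the 5 most abundant per direction, up to 4 called members of each list or the 2 smallest p, and up to 5 genes per direction that RNA-seq or PRO-seq contradicted or did not call. Not every gene named by the rule is printed, and members quoted as not called were added to show the lists.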

Additional observations from a re-analysis of the deposited data

How the results depend on the processing

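The 173 rises and 196 falls became 123 and 117 with DESeq2, 136 and 129 in a fit of all 4 DGE groups, and 240 and 283 with the replicate number as a block. Leaving out each library in turn gave 115 to 243 rises and 104 to 269 falls. The lowest counts came without parental replicates 1 (115 and 111) and 2 (118 and 104), and the highest without regrown replicate 3 (243 and 269). No called gene changed its sign under any of these alternatives. The main fit took the replicate numbers as unpaired. Same-numbered libraries deviated together with correlations of 0.0571, 0.0727 and 0.138, which are small, and each correlated best with its own number. Whether libraries of the same number shared a preparation was not tested. Of 86 named genes that were called, 48 kept their call under every alternative that gave a value for them.

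Under lenalidomide the 129 calls became 59 with DESeq2 and 23 to 149 with a library left out, the lowest without parental replicate 1. The difference between the contrasts, 0 genes, became 1 with the replicate block and 0 to 1 with a library left out. The 4973 PRO-seq calls became 3245 to 5322 with a library left out, the lowest without parental replicate 2, and the 5850 RNA-seq calls stayed within 1.5 times. With 1 count worth 2.70 to 3.58 CPM, the DGE leaves small changes of low genes undetectable, and 5941 of the 16110 genes with a count were tested.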
